A study of Caenorhabditis elegans with 2 samples.

Results

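Of 11281 candidate regions of DMD-4 chromatin immunoprecipitation followed by sequencing (ChIP-seq), 1838 lay between genes on the 5 autosomes of Caenorhabditis elegans. A region was counted here when its summit, the position of its highest signal, lay outside every protein-coding gene. It also had to lie outside the window from 1000 bp upstream to 200 bp downstream of every protein-coding start site. Chromosome X, the mitochondrial genome and the pair of stretches of chromosome IV that hold the piRNA clusters were left out. The choice used position and no measured signal. The label matches the positions in the Ensembl annotation of WBcel235 (the ce11 assembly), but "between genes" means protein-coding genes, and 208 of the regions (11.3%) overlapped a gene of another kind.

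All values come from 1 group of whole L2 larvae with 2 biological replicates, and there was no second condition. The worms were strain OP418, with the genotype unc-119(tm4063) III and the transgene wgIs418, which makes DMD-4 with GFP and FLAG joined to its C terminus. Males and females were pooled, chromatin was sheared by sonication with a microtip, and the age is given as unknown. The labels name dmd-4 as the antibody target, and no source used here names the regulatory sequence that drives the transgene. Whole larvae mix all tissues, so that weak binding in many cells and strong binding in few cannot be told apart.

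DM-domain proteins bind DNA through a fold that holds zinc and contacts the minor groove. The family includes insect Doublesex and worm MAB-3, regulators of sexual differentiation, and DMD-4 is known in this worm for a part in the sex-specific wiring of phasmid neurons, sensory cells of the tail. Binding far from start sites is a feature of enhancers, but worm intergenic sequence is short and also carries genes of small RNAs.

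A call here means that a region passed the authors' threshold on the irreproducible discovery rate (IDR), which rests on how regions rank in the replicates. Such regions are called IDR peaks. All 212 of them had a pooled signal of at least 46.4, and no other candidate region exceeded 46.3. The call thus coincides with a cut on pooled signal, and it does not show that a called region ranked alike in the replicates. Of the 1838 autosomal intergenic regions, 22 were IDR peaks, or 1.20% (95% exact Clopper-Pearson interval 0.752 to 1.81). The background was 1.88% of all candidate regions and 1.57% of autosomal ones. The share among intergenic regions is therefore no higher than in the list as a whole. All 22 were unique in sequence, with no 31-base stretch within 100 bp of the summit that recurs elsewhere in the genome.

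The sequences around 8 of the 22 summits are shown because they carry the words described further on, or, for the cmd-1 region, the highest GC content of the 22. Each is the plus strand of WBcel235 as given by RefSeq, 100 bp to each side of the summit. The regions are named by the gene with the nearest start site, except the first, which lies beside the spliced leader gene sls-2.2. Capitals mark ACATTGT or its reverse complement ACAATGT, the word GGAGTACACGGCTG, and the word ATATACGG or its reverse complement CCGTATAT. In the order of the lines below they span II:5543672-5543872, V:14055136-14055336, II:6061596-6061796, III:9309945-9310145, V:11855056-11855256, V:5642620-5642820, V:13486202-13486402 and V:1151361-1151561.
sls-2.2 region: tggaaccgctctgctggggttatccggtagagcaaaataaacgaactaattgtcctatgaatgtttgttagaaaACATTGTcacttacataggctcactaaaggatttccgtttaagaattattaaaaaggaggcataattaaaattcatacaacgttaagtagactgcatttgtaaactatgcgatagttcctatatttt
F58D12.3 region: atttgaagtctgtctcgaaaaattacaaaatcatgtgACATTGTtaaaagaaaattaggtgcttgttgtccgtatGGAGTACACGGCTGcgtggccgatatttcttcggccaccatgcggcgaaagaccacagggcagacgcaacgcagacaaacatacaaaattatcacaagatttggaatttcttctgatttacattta
H12I13.1 region: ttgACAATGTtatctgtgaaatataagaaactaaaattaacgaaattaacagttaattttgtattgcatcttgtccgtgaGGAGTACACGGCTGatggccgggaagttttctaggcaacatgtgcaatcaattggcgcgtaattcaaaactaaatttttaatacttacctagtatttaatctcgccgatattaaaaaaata
srx-45 region: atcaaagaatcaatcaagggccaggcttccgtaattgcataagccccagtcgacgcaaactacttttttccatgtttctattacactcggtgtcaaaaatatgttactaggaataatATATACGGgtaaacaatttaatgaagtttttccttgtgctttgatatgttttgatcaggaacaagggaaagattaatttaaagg
hmp-1 region: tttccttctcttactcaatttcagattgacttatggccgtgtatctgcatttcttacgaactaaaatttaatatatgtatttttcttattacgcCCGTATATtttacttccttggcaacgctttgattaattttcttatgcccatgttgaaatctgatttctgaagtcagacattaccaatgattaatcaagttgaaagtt
srx-117 region: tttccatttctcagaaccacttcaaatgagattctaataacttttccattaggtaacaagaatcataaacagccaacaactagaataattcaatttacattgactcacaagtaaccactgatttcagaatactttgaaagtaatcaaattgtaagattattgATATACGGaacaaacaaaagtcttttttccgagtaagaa
T10G3.4 region: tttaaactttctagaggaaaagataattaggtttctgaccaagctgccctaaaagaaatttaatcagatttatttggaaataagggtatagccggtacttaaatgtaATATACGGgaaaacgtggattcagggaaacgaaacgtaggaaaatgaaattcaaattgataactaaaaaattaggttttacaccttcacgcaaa
cmd-1 region: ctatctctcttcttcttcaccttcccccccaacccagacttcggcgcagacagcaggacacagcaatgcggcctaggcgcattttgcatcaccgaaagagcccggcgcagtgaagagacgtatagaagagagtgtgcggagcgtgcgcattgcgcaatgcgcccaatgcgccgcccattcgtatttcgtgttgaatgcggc

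The signal of autosomal intergenic regions was mostly weak. Signal is the authors' enrichment value. Its scale is stated by no source used here, and it serves to rank regions within 1 list. The median was 16.9, the quartiles were 14.6 and 20.5, the upper 10% began at 25.8 and the highest was 110.6. Over all candidate regions the median was 16.6, so the bulk of the class was like the rest of the list. The upper end lay between those of the most similar classes. The strongest promoter region on an autosome reached 215.4 and the strongest intergenic region on X reached 251.6, while the strongest autosomal intronic region reached only 78.7. None of the 25 strongest nuclear regions was autosomal intergenic and 2 of the next 25 were. Below rank 50 the class made up 15.0% to 18.4% of every rank range examined.

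**Figure D1:**
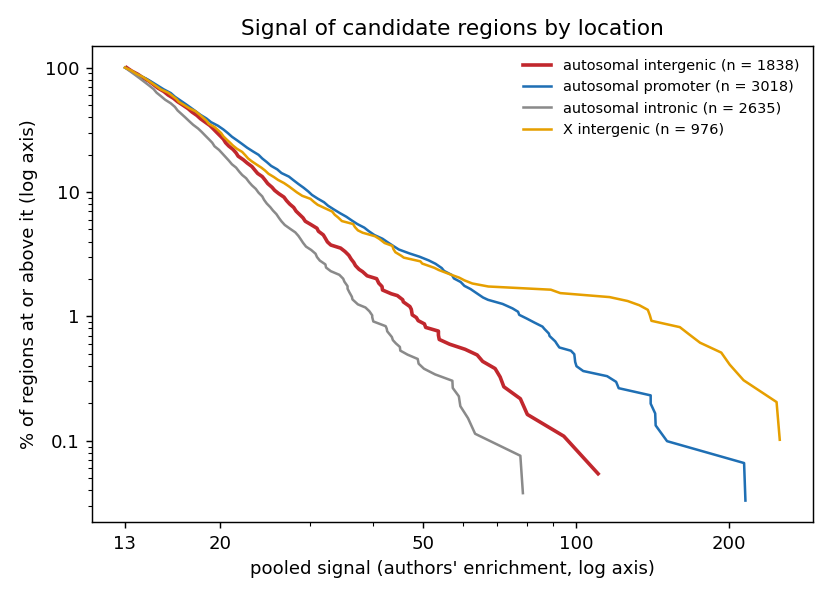
Share of candidate regions (vertical axis, percent, log scale) at or above each pooled signal (horizontal axis, authors' enrichment, log scale), for 1838 autosomal intergenic, 3018 autosomal promoter, 2635 autosomal intronic and 976 X intergenic regions. The autosomal intergenic curve ends at 110.6, between the intronic curve, which ends at 78.7, and the promoter and X intergenic curves, which end at 215.4 and 251.6.

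By class, IDR peaks made up 3.28% of autosomal promoter regions (99 of 3018, interval 2.67 to 3.98) and 2.87% of X intergenic regions (28 of 976, interval 1.91 to 4.12). They made up 0.493% of autosomal intronic regions (13 of 2635, interval 0.263 to 0.842). The interval of the autosomal intergenic share lies below those of promoters and of X intergenic regions, and overlaps that of introns. These intervals count regions as independent, cover counting error only, and no test of the differences was made. The median signal of IDR peaks was 55.2 in the autosomal intergenic class, 62.1 in autosomal promoters and 104.8 between genes on X. The share of called regions moves with the length of the list. It was 2.32% among the stronger 50% of the pooled list, and 0.435% when only the stronger 50% of the IDR peaks counted. For each replicate's own list a different share was taken. There, 0.667% of the intergenic regions were among that replicate's strongest regions, taken in the same number as all IDR peaks.

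The strongest region, at II:5543597-5543946, covered a gene for a spliced leader RNA. It reached 110.6 in the pooled list, 71.3 in replicate 1 and 47.1 in replicate 2, and it ranked 57 in the whole list, 47 in replicate 1 and 65 in replicate 2. The region overlaps sls-2.2, which encodes an SL2 RNA, the short leader that is spliced onto downstream genes of worm operons, and C17C3.23, a noncoding RNA on the other strand. The summit lay 65 bp past the 3′ end of sls-2.2, in single-copy sequence, although 50% of the 31-base stretches of the gene itself recur in the genome. The nearest protein-coding start site was that of ins-13 (WBGene00002096), an insulin-like peptide gene, 1092 bp away, with the summit 740 bp past the gene's end. The region's leading place in both replicates came with a close summit: the replicates' own summits lay 23 bp apart.

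Other SL2 genes were then looked up, after this value had been seen. Of 18 sls-2 genes in the annotation, 8 overlapped a candidate region and 4 an IDR peak. Among all candidate regions, 23 (0.204%) overlapped a small nuclear RNA gene, the kind to which sls-2.2 is assigned. Of the 23, 7 were IDR peaks, against 1.88% of all candidate regions. The family was picked for its strongest region, so its counts are a description, and no difference was tested. Apart from sls-2.2, the regions of the 4 sls-2 genes with an IDR peak lay in promoter windows of coding genes. They are thus not intergenic here, with pooled signals of 151.1 at sls-2.1, 140.3 at sls-2.4 and 64.1 at sls-2.8. The summit lay 34 bp past the 3′ end at sls-2.4. At sls-2.1 and sls-2.8 it lay 150 and 164 bp before the 3′ end, which is outside the gene, upstream of its 5′ end. One more autosomal intergenic region, at I:13297646-13297995, overlapped sls-2.9, along with a tRNA gene and the noncoding RNA gene M01E5.8. It had 24.9 in the pooled list, 13.4 in replicate 1 and 7.18 in replicate 2, and was not an IDR peak. None of 12 sls-1 genes, which encode SL1 RNA, overlapped a candidate region, but every 31-base stretch of theirs recurs in the genome, against 0 to 78.8% within sls-2 genes, so that placing reads there depends on a mapping rule that no source used here states.

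By nearest start site alone, 3 IDR peaks were assigned to a neuropeptide or insulin-like gene, although the ins-13 region overlaps sls-2.2. Besides the region near ins-13 these were I:16827-17176 near nlp-40 (WBGene00022276) and V:14966013-14966362 near nlp-59 (WBGene00008522). The gene nlp-40 encodes a neuropeptide-like protein released from the intestine, with a part in defecation. The nlp-40 region had 66.5 in replicate 1, 35.7 in replicate 2 and 94.7 in the pooled list. It lay between convergent genes, 165 bp past the end of nlp-40 and 482 bp past that of rcor-1, a homologue of the REST corepressor, and the nearest start site was 1899 bp away. The nlp-59 region lay 5248 bp upstream of its gene and had 47.6 in the pooled list, 34.6 in replicate 1 and 10.04 in replicate 2. It was thus high in replicate 1 and low in replicate 2, where it ranked 5390. In all, 42 autosomal intergenic regions (2.29%) had a neuropeptide or insulin-like gene nearest, against 1.08% of autosomal candidate regions. Of the 42, 3 were IDR peaks, beside 1.20% of the class and 1.57% of autosomal candidate regions. The count is small, and the difference was not tested. The next in signal, neither of them an IDR peak, were near ins-1 (34.9) and nlp-81 (27.4).

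Nuclear hormone receptors, a large family of ligand-regulated transcription factors in worms, had 64 autosomal intergenic regions nearest to 39 of their genes, or 3.48% against 1.90% of autosomal candidate regions. Of the 64, 1 was an IDR peak, near the share in the whole class. It lay at V:3870363-3870712, 1533 bp upstream of nhr-157 (WBGene00015900), with 42.4 in replicate 1, 39.8 in replicate 2 and 80.3 in the pooled list. Both replicates gave close values here. Another IDR peak, in the promoter window of nhr-158, lay 4008 bp away with a pooled signal of 68.7. The next in the family were regions near nhr-186 (44.6, with 12.4 in replicate 1 and 32.2 in replicate 2) and nhr-43 (40.8, with 17.7 and 19.5). The nhr-186 region was among the 5 strongest that missed the IDR threshold.

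Chemoreceptor genes, which encode receptors of sensory neurons, were nearest to 88 autosomal intergenic regions (4.79%, against 3.96% of autosomal candidate regions). Of the 88, 3 were IDR peaks, beside 1.20% of the class and 1.57% of autosomal candidate regions, a difference that was not tested. The region upstream of srx-45 (III:9309870-9310219) had 65.6 in the pooled list, 38.2 in replicate 1 and 26.9 in replicate 2. That upstream of srx-117 (V:5642545-5642894) had 49.0, 19.4 and 27.7 in the same order. The region at V:6220825-6221174, between the convergent genes str-206 and W06H8.6, had 47.7 in the pooled list, 11.4 in replicate 1 and 30.3 in replicate 2. It was low in replicate 1, where it ranked 4687. The other lists held fewer regions. Cuticle collagen genes were nearest to 18, with 0 IDR peaks, against 0.645% of autosomal candidate regions and 0.979% of the intergenic ones. The list of twk potassium channel and unc genes had 13 (0.707%, against 1.54%) with 1 IDR peak, at unc-116. C-type lectins had 12 (0.653%, against 0.351%) and homeobox genes 9 (0.49%, against 0.294%). Ribosomal protein genes had 6 (0.326%, against 0.419%), detoxification genes 6 (0.326%, against 0.408%) and neurotransmitter receptors 5 (0.272%, against 0.385%). F-box genes had 3 (0.163%, against 0.374%), MATH and BTB genes 3 (0.163%, against 0.147%), heat shock genes 1 (0.0544%, against 0.0792%) and histone genes 0 (against 0.0226%). These last 9 lists had 0 IDR peaks, and with so few regions that count says little.

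DM-domain genes, the family of DMD-4 itself, were nearest to 4 autosomal intergenic regions, or 0.218%, against 0.215% of autosomal candidate regions. None of the 4 was an IDR peak, which so small a number cannot set apart from the 1.20% of the class. Of these, 3 lay upstream of dmd-7. The one 1007 bp from its start had 14.9 in replicate 1, 16.8 in replicate 2 and 32.4 in the pooled list. Those at 2744 and 4309 bp had 20.4 and 19.5, and both were seen in each replicate. The fourth lay 5060 bp upstream of dmd-3, which acts in male tail formation, with 18.4 in the pooled list and 12.6 in replicate 1, and no region in replicate 2. For unc-119, mutated on chromosome III in this strain, 1 autosomal intergenic region lay within 50 kb, with a pooled signal of 14.2.

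The remaining IDR peaks were nearest to genes of varied roles. At V:14055061-14055410, 2604 bp upstream of F58D12.3, replicate 1 gave 44.3, replicate 2 gave 33.5 and the pooled list 77.8. At IV:2048933-2049282, between cng-2, which encodes a cyclic nucleotide-gated channel subunit, and R05C11.4, the same order of values was 46.2, 28.8 and 72.2. At V:1151286-1151635, 4810 bp upstream of cmd-1, which encodes calmodulin, they were 46.8, 27.5 and 71.0. These 3 were higher in replicate 1, and the last of them overlapped the long noncoding RNA gene linc-128. At II:5964968-5965317, near B0034.1, the order was the reverse, with 26.8 in replicate 1, 45.2 in replicate 2 and 69.4 in the pooled list. At II:5201089-5201438, downstream of msp-50 (a major sperm protein gene) and 2058 bp upstream of ampd-1 (an AMP deaminase gene), the replicates were close, at 33.3 and 32.5, with 64.0 pooled. At IV:1483647-1483996, near Y77E11A.16, they were 36.6 and 21.3, with 60.6 pooled.

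The other IDR peaks had pooled signals below 60. At III:3801404-3801753, between mtm-3 (a myotubularin phosphatase gene) and xbx-5, replicate 1 had 14.5 and replicate 2 had 40.1, with 56.5 pooled. At III:8356562-8356911, upstream of unc-116, which encodes the kinesin-1 heavy chain, both had 21.8, with 53.9 pooled. At III:4282049-4282398, upstream of sup-26, which encodes an RNA-binding protein, they had 39.2 and 16.9, with 50.7 pooled. The larger value thus fell in replicate 2 at mtm-3 and in replicate 1 at sup-26. At V:11854981-11855330, past the end of hmp-1, which encodes alpha-catenin, the values were 30.6 and 16.6, with 50.4 pooled. At II:6061521-6061870, 281 bp past the 3′ end of H12I13.1, they were 22.99 and 24.8, with 47.5 pooled. The other 4, near F45D3.1, F32D8.1, tag-89 and T10G3.4, had pooled signals from 47.2 to 53.7 and a signal in each replicate of at least 16.1.

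The 22nd IDR peak by signal, near T10G3.4, had 47.2, and the strongest region that missed the threshold, at V:14401029-14401378 near C15H11.13, had 46.3. The latter had 18.3 in replicate 1 and 28.0 in replicate 2, values within the range of the IDR peaks. The next 4, at V:7041371-7041720, III:5506523-5506872, V:3855891-3856240 and III:13061114-13061463, had 45.8, 45.7, 44.6 and 44.6. The IDR list is the top of the pooled ranking, so that called and uncalled regions follow directly on each other.

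All 22 IDR peaks overlapped a region of each replicate, but their order was not shared. Replicate 1 gave the higher signal in 14 of 22, against 429 of the 730 autosomal intergenic regions seen in both and 2633 of 4398 nuclear ones. The ratio of replicate 1 to replicate 2 ran from 0.361 to 3.45 at the 22. Its median was 1.19 there and 1.11 over the nuclear regions, so a higher value in replicate 1 is common in the whole list. Across the 22, the Spearman correlation between replicates was 0.0435, and across the 730 autosomal intergenic regions seen in both it was 0.197, with a Pearson correlation of log2 signals of 0.352. These correlations run over regions of the same pair of libraries, whose labels list the same possible control, and the selection narrows the range of signal. Of the 22, 13 were among the 212 strongest regions of replicate 1, 15 among those of replicate 2, 8 among both and 2 among neither. The 2 were the regions near unc-116 and H12I13.1. The replicates' summits lay a median of 27 bp apart at the IDR peaks, and 97 bp apart over all 730.

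**Figure D2:**
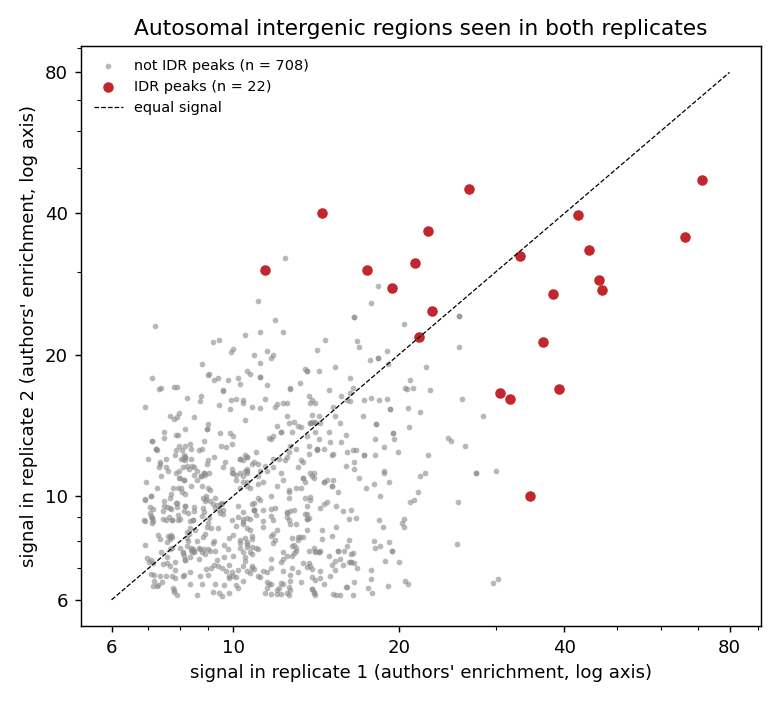
Signal in replicate 1 (horizontal axis) and replicate 2 (vertical axis), both the authors' enrichment on log axes, for the 730 autosomal intergenic regions that overlap a region of each replicate, with the 22 IDR peaks in red and the dashed line at equal signal. The IDR peaks lie on both sides of the line, 14 of 22 below it, and 1 grey point is hidden under that of the sls-2.2 region because a weak neighbouring region overlaps the same replicate regions.

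Seen in both replicates were 730 of the 1838 regions, or 39.7% (interval 37.5 to 42.0), against a background of 39.2% of all candidate regions. A further 513 (27.9%) overlapped a region of replicate 1 only, 474 (25.8%) of replicate 2 only and 121 (6.58%) of neither. Their median pooled signals were 20.1 for both, 16.0 and 15.6 for a single replicate and 14.4 for neither. In 10 groups of like size by signal, this share went from 12.5% in the weakest (signal 13.1 to 13.7) to 88.6% in the strongest (25.8 to 110.6). Nuclear candidate regions of the same signal ranges gave 14.6% and 88.2%, close to the intergenic ones. Overlap of 1 bp was enough here; the share was 30.3% when 50% of the shorter region had to be shared and 22.2% when summits had to lie within 100 bp.

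**Figure D3:**
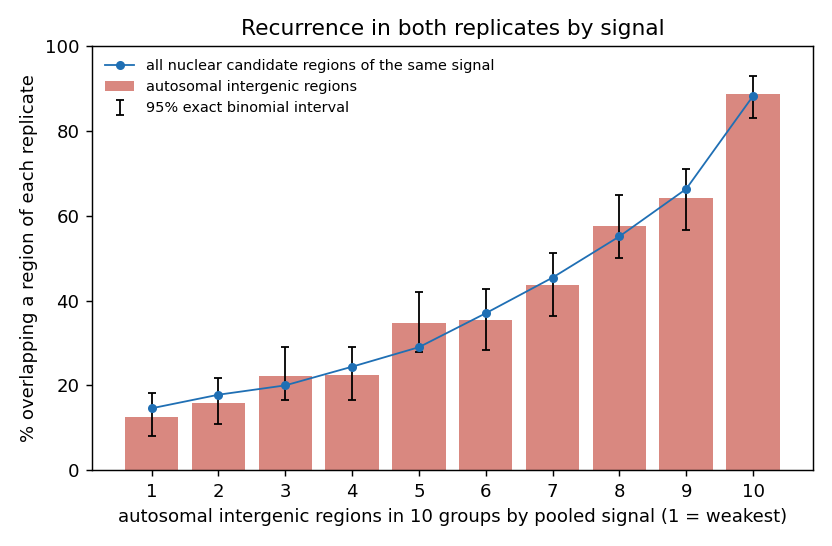
Share of autosomal intergenic regions (bars, percent) that overlap a region of each replicate, in 10 groups from the weakest to the strongest pooled signal, with 95% exact binomial intervals; the blue points give all nuclear candidate regions within the same signal limits. The bars rise from 12.5% to 88.6%, and the blue points from 14.6% to 88.2%.

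In each replicate's own list, called without the other, the same rule found 2850 of 17531 regions in replicate 1 and 2999 of 18240 in replicate 2, or 16.3% and 16.4%. Their median signals, 9.26 and 8.32, were close to those of the whole lists, 9.25 and 8.37. Among the 212 strongest regions of each replicate, 19 and 20 were autosomal intergenic, of which 13 and 15 overlapped one of the 22 IDR peaks.

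Autosomal intergenic regions were denser in the middle of the chromosomes. Chromosomes were divided into 3 equal parts, and density was taken per Mb of sequence in which a summit would count as intergenic, 16.9 Mb in all or 20.5% of the autosomes. It was 153.8 per Mb in the middle part, with 848 regions, against 82.9 in the left part (497 regions) and 91.5 in the right part (493 regions). The middle was the densest on chromosomes I, II, IV and V, at 133.5 to 177.3 per Mb against 45.0 to 128.4 in their outer parts. Chromosome III was the exception, with 117.3 in the middle, 108.0 to the left and 141.7 to the right.

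The middle part was also the densest in each replicate's own list, with 218.9 per Mb in the middle against 146.5 and 142.1 in replicate 1, and 236.5 against 145.3 and 153.0 in replicate 2. So it was for autosomal promoters (162.4 against 112.1 and 124.0), autosomal introns (142.4 against 99.7 and 115.8) and intergenic X (196.3 against 145.7 and 172.8). The ratio of middle to outer parts was largest between autosomal genes, a difference that was not tested. Multi-copy sequence moved with it: 11.8% of intergenic positions in the middle part began a 31-base stretch that recurs in the genome, against 18.1% and 17.8% in the outer parts, and the part of this in the density was not tested. Of the 22 IDR peaks, 9 lay in the left part, 10 in the middle and 3 in the right, and no test was made of how this spread compares with that of the candidate regions.

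**Figure D4:**
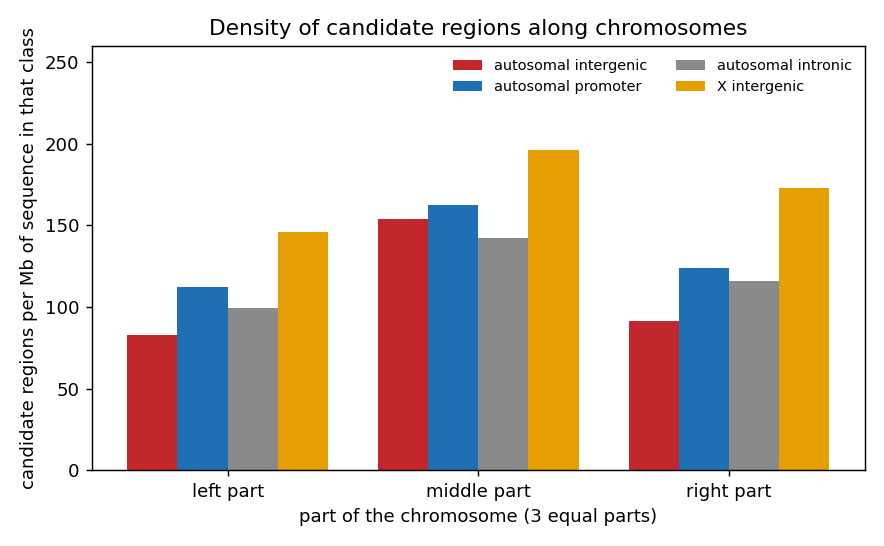
Candidate regions per Mb of sequence in each class (vertical axis) in the left, middle and right of 3 equal parts of the chromosomes (horizontal axis), pooled over the 5 autosomes or on X. The autosomal intergenic bars stand at 82.9, 153.8 and 91.5 per Mb, and in each of the 4 classes the middle part is the densest.

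By chromosome, V held 538 of the regions and 10 of the 22 IDR peaks, in 5.17 Mb of the 16.9. Chromosomes II and III held 4 IDR peaks each, IV held 3 and I held 1. A pair of 1-Mb stretches held more than 1 IDR peak: II from 5 to 6 Mb had 3, among 33 regions, and V from 14 to 15 Mb had 2. The distance of the 22 IDR peaks to the nearest IDR peak of any class had a median of 192935 bp, 14 of 22 had none within 100000 bp, 4 had one within 50 kb, and none had one within 1000 bp. Neighbouring autosomal intergenic regions, called or not, lay a median of 17079 bp apart, and 66 overlapped their neighbour. That spacing is a different measure from the distance to an IDR peak of any class.

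Relative to the flanking genes, 57.0% of the regions lay between genes on the same strand, 32.1% between divergent genes and 10.9% between convergent genes, where the region is downstream of both. The sequence in which summits could fall was 54.4%, 28.6% and 16.8% of these kinds. Convergent sequence thus held 70.5 regions per Mb, against 113.9 and 122.1 in the other kinds. The share between convergent genes depends on the promoter window, from 8.71% with a window of 500 bp upstream to 14.7% with one of 2000 bp. Among the IDR peaks 13 lay between genes on the same strand, 6 between divergent and 3 between convergent genes, the last near nlp-40, B0034.1 and str-206. The distance to the nearest start site had a median of 2367 bp, and 2495.5 bp among the IDR peaks, where the window rule keeps it above 1000 bp on the upstream side. The summit lay upstream of that start in 71.8% of the regions, 14.3% lay over 5000 bp away, and 19.3% lay within 500 bp of a gene's end. The 1838 regions had 1342 different nearest genes. The gene with most was aakg-1, which encodes a regulatory subunit of AMP-activated kinase, with 7 regions of pooled signal 13.2 to 22.2.

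Genes of other kinds were overlapped by 208 regions, or 11.3%, against 1472 (13%) of all 11281 candidate regions. The share was above that of all candidate regions for pseudogenes (83 regions, 4.52% against 1.28%), long intergenic RNAs (24 regions, 1.31% against 0.425%), antisense RNAs (5 regions, 0.272% against 0.16%) and small nucleolar RNAs or snoRNAs (10 regions, 0.544% against 0.417%). It was close to it for genes annotated as ncRNA (67 regions, 3.65% against 3.77%), microRNAs (3 regions, 0.163% against 0.151%) and small nuclear RNAs (3 regions, 0.163% against 0.204%). It was below it for piRNAs (20 regions, 1.09% against 6.60%), whose clusters the rule leaves out, for tRNAs (10 regions, 0.544% against 1.25%) and for ribosomal RNAs (0 regions, against 0.0798%). No test was made of these differences. The background also holds regions in promoters, exons and introns of coding genes, which the rule leaves out. How far the rule itself moves each share was not tested. For all kinds together, the share was 12.2% in X intergenic regions. The share was 6.15% when the summit itself had to lie inside such a gene, and 25.5% when the piRNA clusters of chromosome IV were kept. Of all 212 IDR peaks, mitochondrial ones included, 48 (22.6%) overlapped a gene of another kind, and of the 99 in autosomal promoters 15 (15.2%). Of the 22 IDR peaks here 2 overlapped any, or 9.09%, those at sls-2.2 and linc-128. The strongest over a snoRNA gene, at IV:11549691-11550040 over F12F6.11, had 36.8 in the pooled list, 16.9 in replicate 1 and 20.8 in replicate 2. The strongest over a tRNA gene, at III:4470760-4471109, had 27.6, with 24.1 in replicate 1 and no region in replicate 2, and 29.2% of the 31-base stretches around its summit recur in the genome. The microRNA regions were weaker, from 13.8 at cel-mir-51 to 17.1 at cel-mir-53, and none was seen in both replicates.

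The candidate regions were AT-rich and the called ones less so, as in the list as a whole. Within 100 bp of the summit the median GC content was 29.9%, against 34.3% in 80814 windows of the same length that tile autosomal intergenic sequence. The median over all candidate regions was also 29.9%. Among the 22 IDR peaks the median was 32.3% and the mean 36.0%, against 36.8% and 36.6% over all 212 IDR peaks. The median was 38.8% in IDR peaks of autosomal promoters and 37.3% in those between genes on X. The 22 fell into 2 ranges with none between 35% and 40%: 15 had 25.4% to 34.8%, and 7 had 40.3% to 57.7%. The 7 were the regions near nlp-40, F58D12.3, R05C11.4, cmd-1, mtm-3, unc-116 and sup-26. Of the 132 candidate regions at 40% GC or more, 7 were IDR peaks, against 0 of 230 from 35% to 40%, 9 of 554 from 30% to 35%, 6 of 620 from 25% to 30% and 0 of 302 below. The highest of the 22 IDR peaks was the cmd-1 region, at 57.7%. Lower-case letters in the RefSeq sequence, which mark repeats and low complexity, took a median of 41.8% of the window in the 1838 regions and 19.4% in their IDR peaks. In the whole list these medians were 42.3% and 23.4%. GC content and such letters thus moved with the call, and their part in it was not tested.

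**Figure D5:**
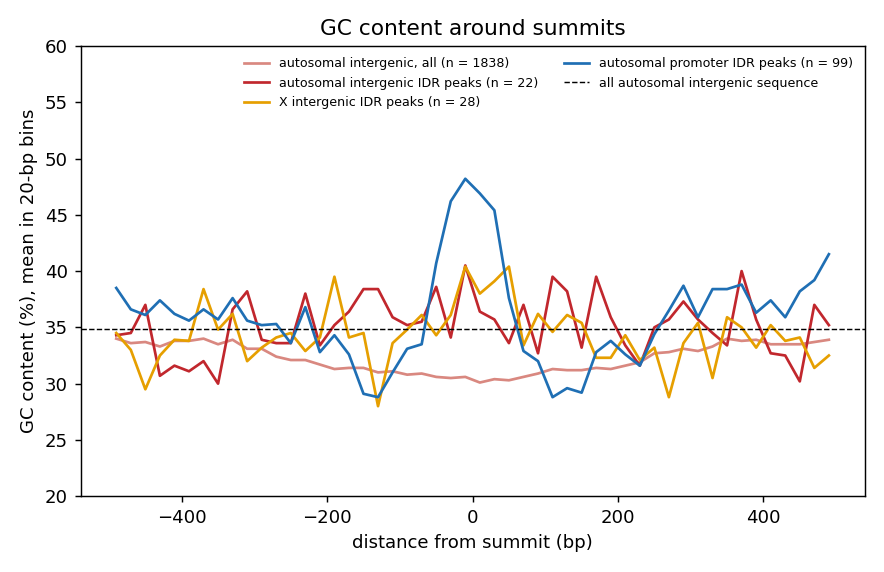
Mean GC content in 20-bp bins (vertical axis, percent) by distance from the summit (horizontal axis, bp), for the 1838 autosomal intergenic regions, their 22 IDR peaks, 28 X intergenic and 99 autosomal promoter IDR peaks. The dashed line is the 34.9% of all autosomal intergenic sequence, and the candidate regions as a group lie below it near the summit.

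The DM-domain core, ACATTGT on either strand, was as frequent as in intergenic sequence at large. Within 100 bp of the summit, 58 of 1838 regions held it, or 3.16% (interval 2.40 to 4.06), against 3.36% of the tiling windows and 3.35% of all candidate regions. Of the 22 IDR peaks 3 held it, or 13.6% (interval 2.91 to 34.9), an interval that takes in the share of all regions. These were the sls-2.2, F58D12.3 and H12I13.1 regions shown in the sequences, where the core was centred 23, 60 and 94 bp from the summit. The 58 regions with the core had a median signal of 16.6, against 16.9 in those without, and 41.4% of them were seen in both replicates, against 39.7%. The share was 1.52% within 50 bp of the summit and 5.22% in the whole region. TGTTGC, the core of the MAB-3 site, was in 7.34% of the regions and 1 of 22 IDR peaks, against 8.24% of tiling windows.

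Words picked out earlier in these same data did not occur at the 22 IDR peaks. CTTGCGC was in 0 of 22, which allows a share of up to 13.6% by a limit of 3 counts and up to 15.4% by the exact interval, and in 19.2% of 99 autosomal promoter IDR peaks. CCCTGCG and GCAGGGA were each in 0 of 22 and in 32.1% of 28 X intergenic IDR peaks. Since these words came from IDR peaks of promoters and X, their shares there are a description only. GATAAG, the core bound by GATA factors such as those of the intestine, was in 6.96% of the regions and 1 of 22 IDR peaks, against 7.20% of tiling windows. GAGAGAG was in 4.57% of the regions and 3 of 22, against 3.44% of tiling windows, and TGACTCA in 3.32% and 1 of 22, against 1.96%.

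Some words recur among the 22 IDR peaks themselves. They were picked after the sequences had been read, so their counts are a description. ATATACGG, on either strand, was in 4 of the 22, near srx-45, hmp-1, srx-117 and T10G3.4, centred 20.5, 2.5, 65.5 and 10.5 bp from the summit. It was in 9 of the 1838 regions and 35 of all 11281, and in 0.459% of tiling windows. The other 5 intergenic regions with it were weak, with pooled signals of 13.1 to 20.1 and a region in only 1 replicate each. No IDR peak of another nuclear class held it, 4 of 185 in all. The word occurs 1862 times in the genome.

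The longest word shared by any pair of the 22, on either strand, was GGAGTACACGGCTG, in the F58D12.3 region at V:14055211-14055224 and in the H12I13.1 region at II:6061676-6061689. The nuclear genome holds 4 copies of it, and the other two, at IV:14356912-14356925 and V:18334767-18334780, overlapped no candidate region of the pooled list or of either replicate. Both regions with the word also hold the DM-domain core, at different distances from it. CTGCGTCTC was in 2 of the 22, near nlp-40 and R05C11.4, and in 10.1% of autosomal promoter IDR peaks. It was also in 1.69% of the autosomal intergenic regions and 1.10% of tiling windows, and it occurs 4419 times in the genome. CAGGGAAAC was in 2, near nhr-157 and T10G3.4, and in 7 of all 11281 candidate regions.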

How the data were processed

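The data were DMD-4 ChIP-seq region lists from 2 biological replicates of 1 group. The authors deposited candidate lists for each replicate and for both together, and a list thresholded by IDR, all in ce11, which is the sequence of WBcel235. The aligner, peak caller, IDR threshold and type of control, not given in the sources used here, could not be checked. Signal is the authors' deposited enrichment per region, and the deposited −log10 q-value, tied at its maximum, was not used for ranking. The deposited summit offset gave positions. No reads were used, so the depth is unknown, and the intervals cover counts of regions alone.

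Summits were classified against Ensembl release 115, with all ce11 regions kept and no filter on signal. Regions overlapped when they shared at least 1 bp. Sequences came from RefSeq; words were sought on either strand, 100 bp to each side of summits, and copy number from exact 31-base matches. Analyses used Python 3.11.15, numpy 2.4.6, pandas 2.3.3, scipy 1.17.1 and matplotlib 3.10.9. Classification and overlap were tested on simulated data. The rule, the 15 gene lists and the 8 words were chosen with earlier results of these data known, and 4 further words after the sequences were seen.

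Regions named were all IDR peaks, the 5 next in signal and up to 3 per noncoding biotype. The spliced leader genes, aakg-1 and the nearest members of some lists were named after their values were seen. Lists in ce10 were not used here. Alternatives were other promoter windows, replicates alone, stronger regions, other overlap criteria and other motif windows.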

Additional observations from a re-analysis of the deposited data

How the results depend on the processing

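No paired analysis was possible because there was 1 group of 2 replicates and nothing to pair it with. Over the other promoter windows, the merging of overlapping regions and the inclusion of the chromosome IV clusters, the number of regions ranged from 1268 to 2343, the IDR share from 1.03% to 1.32%, the share seen in both replicates from 38.7% to 40.5% and the median signal from 16.8 to 17.0. The share between convergent genes moved to 8.71% with a window starting 500 bp upstream, 14.7% with one starting 2000 bp upstream, 7.27% when the whole region had to lie outside genes and 12.9% with the chromosome IV clusters kept. Those clusters raised the share over noncoding genes to 25.5%, and requiring the summit inside such a gene lowered it to 6.15%. In the stronger 50% of the pooled list 947 regions were left, with an IDR share of 2.32%, 57.6% seen in both replicates and a median signal of 20.4. With each replicate alone, the number of regions was 2850 to 2999, the median signal 8.32 to 9.26 and the share over noncoding genes 12.0% to 13.3%. The value taken there in place of the IDR share was 0.667%. It is the share among that replicate's strongest regions, in the same number as all IDR peaks, and does not count IDR peaks. A share seen in both replicates has no value with each replicate alone. The stronger 50% of the IDR peaks gave an IDR share of 0.435%. Stricter overlap gave 30.3% (50% of the shorter region) and 22.2% (summits within 100 bp) seen in both. The DM-domain core share was 1.52% within 50 bp and 5.22% in the whole region. In alternatives added after seeing the data, the IDR share was 1.23% among the 1630 regions over no annotated gene and 1.29% among the 1706 with single-copy sequence only. The causes of these moves beyond the settings' own construction were not tested. Unknown read depth limits every value, since a region missing from a replicate may be one just under its calling limit.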
